A study of Arabidopsis thaliana with 18 samples.

Results

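The splicing of 5 genes of the circadian clock was followed across temperature and genotype: *PRR7* (AT5G02810), *LNK1* (AT5G64170), *LNK2* (AT3G54500), *COR27* (AT5G42900) and *JMJ30* (AT3G20810). They were taken by their function in the clock from the 334 genes of the deposited splicing table and hold 8 of its 399 events. *PRR7* has 3 events, *LNK2* has 2 and the other genes have 1 each. Arabidopsis plants of the Col-0 accession (WT) and of the mutants *sdg8-2* and *sdg26-1*, both in Col-0, were raised for 5 weeks at 16 °C with 8 h of light and 16 h of dark. They then stayed at 16 °C or spent 1 day at 25 °C, which makes 6 conditions of 3 samples each and 18 samples in all. A sample is RNA of about 10 plants from shoot apices with young leaves, enriched for the meristem by removal of leaves. Each mutant is 1 T-DNA insertion line that lacks a methyltransferase for lysine 36 of histone H3, and the study asked whether loss of this mark alters splicing responses to warmth.

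The plant clock is a network of transcription factors that repress and activate each other in turn over the day. Its period is kept nearly constant over a range of temperatures, and many of its genes give several spliced forms whose balance depends on temperature. *PRR7* encodes a pseudo-response regulator that represses morning genes such as *CCA1* and *LHY* during the day. *LNK1* and *LNK2* encode related coactivators that join the MYB-like factor RVE8 to switch on evening genes. *COR27* encodes a small cold- and light-regulated protein that represses clock genes and acts on flowering. *JMJ30* encodes a jumonji-C histone demethylase with evening expression, and lysine 36 of histone H3, which SDG8 and SDG26 methylate, is among the residues it is reported to act on.

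The measure was PSI (percent spliced in), which runs from 0, where no transcript of an event has the spliced-in form, to 1, where all have it. For intron retention (IR) it is read here as the share that keeps the intron, and for exon skipping (ES) as the share that includes the exon. For alternative 3′ and 5′ sites (A3 and A5) the sources used here do not give which site counts as spliced in, so a direction is given for PSI alone. The authors merged the 3 replicates of a condition, so each value stands alone, without a replicate error, and no test could be made. Where a pair of values is given, the first is from 16 °C and the second from 25 °C. Values have 2 decimals, and rounding alone can move a difference between 2 of them by 0.01 and a difference between 2 changes by 0.02. Read depth per event is unknown. Every listed event was selected by the authors for a temperature response in at least 1 genotype, so shares over the 399 events describe responding events and not the transcriptome. PSI is a share over all cells of the tissue, so that a shift within cells and a shift in the mix of cells cannot be told apart. All plants were harvested in 1 window of some hours within the light period, and other phases of the clock were not measured. The time of each sample within that window is not given in the sources used here. A difference in harvest time between conditions thus cannot be told apart from one of temperature or genotype. The table holds no expression levels, and neither the tissue label nor the mutations were checked.

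The annotation shows where these genes can be spliced in more than 1 way. The table does not place its events within the genes, so the annotated transcripts of RefSeq (TAIR10.1) were searched for differences of the listed types. The coding spans that the table quotes, on TAIR10, were found in that annotation for 5 of the 5 genes. The IR event of *PRR7*, the ES event of *LNK1*, the A3 event of *COR27* and the A5 event of *JMJ30* each had exactly 1 annotated difference of their type. The IR event of *LNK2* had 6 and its A3 event 2, whereas the *PRR7* ES events had none. These are candidates only, because the authors extended the annotation with transcripts assembled from their reads.

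**Figure D1:**
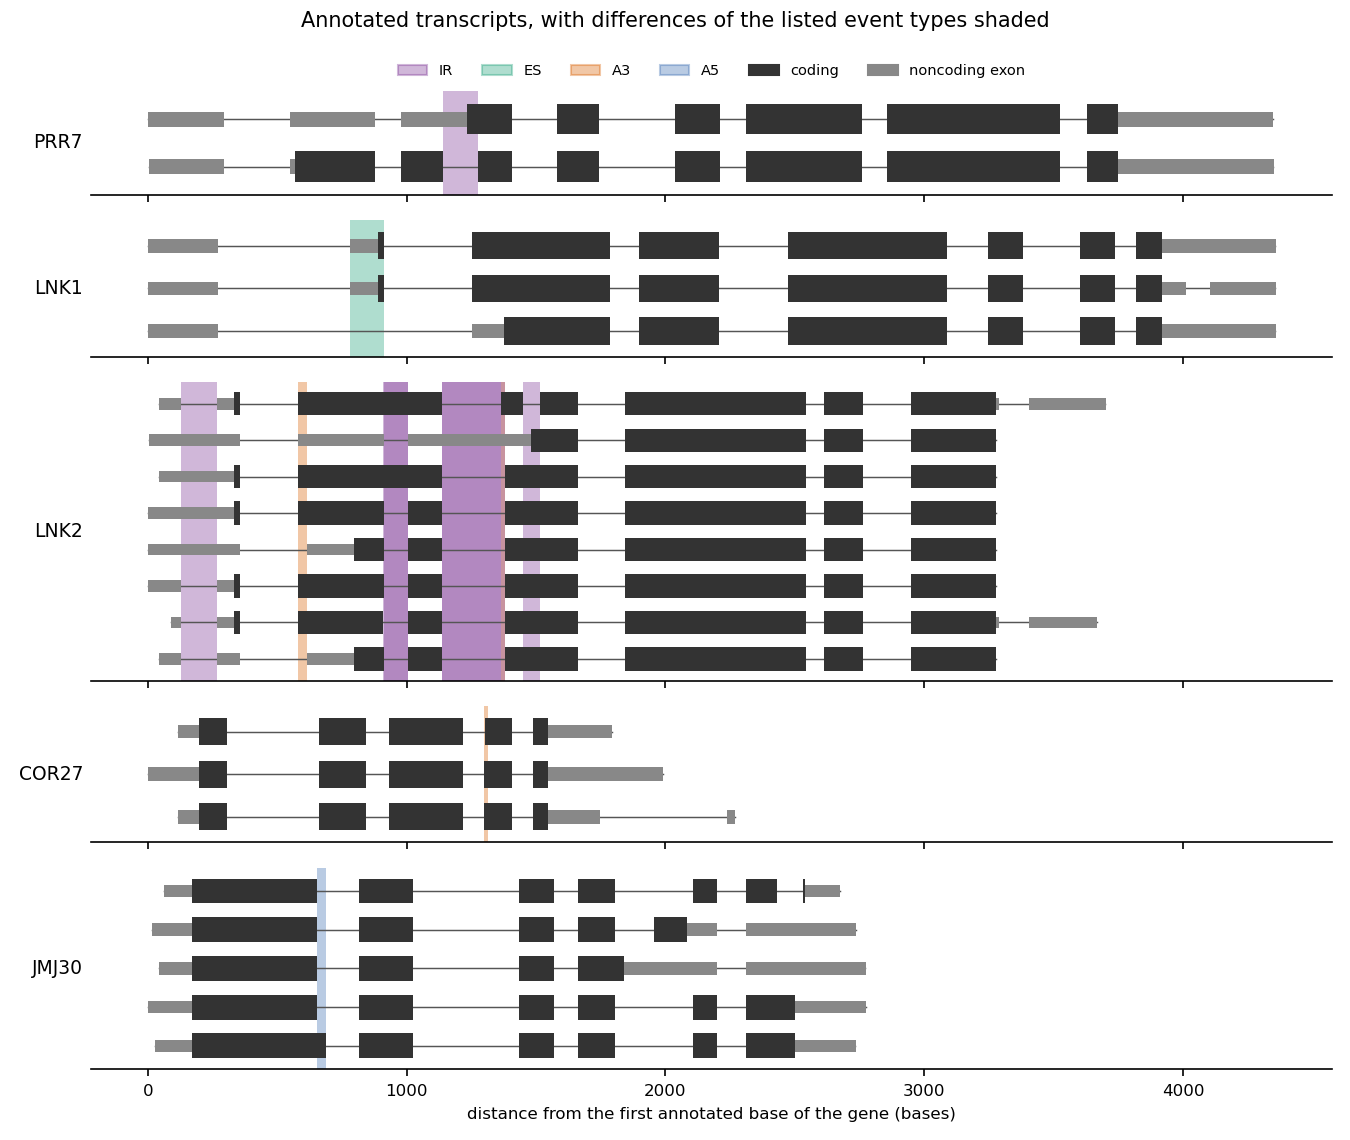
Annotated transcripts of the 5 genes (1 line per transcript, wide dark boxes coding, narrow grey boxes noncoding exon, thin lines introns) against the distance in bases from the first annotated base of the gene, read in the direction of transcription. Shading marks the annotated differences of the event types listed for that gene, with overlapping ones darker and the 3-base difference of *COR27* widened to be visible. *PRR7*, *LNK1*, *COR27* and *JMJ30* show 1 shaded place each and *LNK2* several.

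*PRR7* lies on chromosome 5 from 637681 to 642030 on the reverse strand and has 2 annotated transcripts. One of them keeps an intron of 133 bases, chr5:640756-640888, that lies inside the coding sequence of the other. Read from the start codon of that other transcript, the reading frame with this intron kept meets a stop codon after 172 codons, against 727 codons without it. The transcript that keeps the intron is annotated with a different coding start, inside the intron and after this stop. Its annotated protein thus lacks the first part of the longer one. The intron is shown in full because the stop lies in it. It is written in the direction of transcription, with the stop codon, bases 45 to 47, in capitals.
PRR7 intron: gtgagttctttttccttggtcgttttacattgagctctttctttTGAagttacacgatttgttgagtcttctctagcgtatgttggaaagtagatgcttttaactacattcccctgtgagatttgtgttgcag

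*LNK1* lies on chromosome 5 from 25672466 to 25676823 on the reverse strand. Its annotated skipped exon, of 130 bases (chr5:25675911-25676040), carries the start codon of 2 of its 3 transcripts. The transcript without this exon is annotated with a start codon in the next exon, which leaves 566 in place of 616 codons, 50 fewer. The coding end of the exon with the first bases of the intron after it (chr5:25675902-25675934) is set beside the start of the shorter form (chr5:25675425-25675445), with start codons and the GT that opens the intron in capitals.
LNK1 start in the skipped exon: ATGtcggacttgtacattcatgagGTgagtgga
LNK1 start without the exon: ATGggtagtggaacaaaccat

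In *COR27*, on chromosome 5 from 17197641 to 17199910 on the reverse strand, the annotated acceptors are only 3 bases apart (chr5:17198607-17198609), so that the forms differ by 1 codon. In *JMJ30*, on chromosome 3 from 7275645 to 7278420 on the forward strand and named *JMJD5* in RefSeq, the annotated donors are 33 bases apart (chr3:7276300-7276332). The longer form adds 11 codons in frame. Both sites are shown, at chr5:17198601-17198622 and chr3:7276291-7276341, with the AG that ends the intron or the GT that opens it in capitals at each site.
COR27 acceptors: tgatgttttaaAGcAGaggtat
JMJ30 donors: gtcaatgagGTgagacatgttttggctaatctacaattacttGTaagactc

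*LNK2*, on chromosome 3 from 20175370 to 20179070 on the reverse strand, has 8 annotated transcripts, the most of the 5 genes. The median was 3 over the 327 listed genes found in RefSeq and 1 over 27562 protein-coding genes. All but 1 of its 6 candidate introns fall in the coding span of some transcripts. Reading frames were followed from the start codon of a transcript that removes the intron. With the introns of 65, 244 or 230 bases kept, the frame meets a stop inside the intron, after 238 codons for the shortest of them and 194 for the others. Other transcripts are annotated with the 65 bases as coding sequence. A transcript that keeps these bases together with the longer intron has its annotated coding start inside the 65 bases. The introns of 93 and 96 bases share an acceptor and have lengths divisible by 3. With either of them kept, the frame has no stop in the intron and reads 680 codons. The donors and acceptors of these introns are shown because the event with the largest change of PSI among the 5 genes may be any of them or none, with GT and AG at the intron's ends in capitals. The donors lie at chr3:20177612-20177623, chr3:20177926-20177937, chr3:20178149-20178160 and chr3:20178152-20178163, and the acceptors at chr3:20177553-20177570, chr3:20177688-20177705, chr3:20177702-20177719 and chr3:20178062-20178079.
LNK2 donor, 65 bases: gatGTatccaat
LNK2 donor, 244 and 230 bases: cagGTaaaacga
LNK2 donor, 93 bases: gtgGTgcgtttc
LNK2 donor, 96 bases: gagGTggtgcgt
LNK2 acceptor, 65 bases: aggattggatattAGaac
LNK2 acceptor, 244 bases: gtgatggttttgcAGcaa
LNK2 acceptor, 230 bases: caatatcctcacaAGtga
LNK2 acceptor, 93 and 96 bases: ctctgtttttaccAGaga

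The acceptors of the 244-base and the 230-base intron are also 1 of the 2 annotated A3 differences of *LNK2*, with 14 bases between them. The other, of 37 bases (chr3:20178455-20178491), overlaps a noncoding RNA gene of the opposite strand, AT3G08405 (chr3:20178471-20178736). The libraries were strand-specific, but whether the estimate of PSI used the strand is not given in the sources used here. Protein-coding genes of the opposite strand also overlap the 3′ ends of *LNK1* (AT5G64160) and *LNK2* (AT3G54490).

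The balance of spliced forms differed between 16 °C and 25 °C in the same direction in each genotype for 8 of 8 events. Both IR events had higher PSI at 25 °C and the 3 ES events lower PSI, while the 2 A3 events and the A5 event had higher PSI. Of all listed events, 84% had changes of the same sign in all 3 genotypes, so this was frequent in the table. By type, 46 of the 155 listed IR events were higher at 25 °C in every genotype and 85 lower, and of the 40 ES events 20 were higher and 16 lower. Of the 130 A3 events 50 were higher and 63 lower, and of the 73 A5 events 28 were higher and 26 lower. The IR, ES and A3 events of the 5 genes had the less frequent direction of their types and the A5 event the more frequent one. The counts were close for all types but IR. For A3 and A5 this is a direction of PSI alone, because the spliced-in site is not known. Both A3 events of *LNK4*, a clock gene outside the 5, were lower at 25 °C in every genotype. Of the ES events, those of *PRR7* may share an exon.

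**Figure D2:**
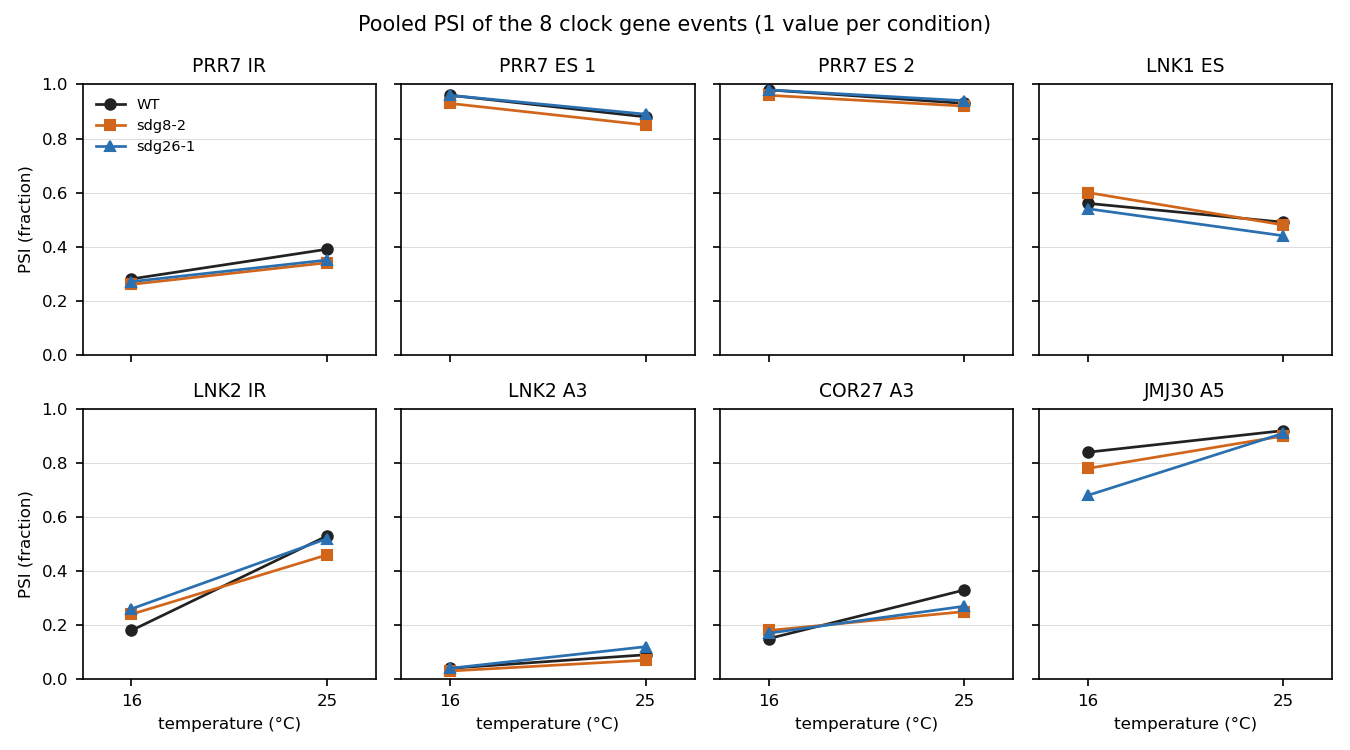
Pooled PSI (vertical axis, fraction from 0 to 1) at 16 °C and 25 °C for the 8 events, with 1 panel per event and lines joining the values of WT, *sdg8-2* and *sdg26-1*. Each point is 1 value from merged replicates, so no error can be drawn. *LNK2* IR has the steepest WT line, from 0.18 to 0.53, and *JMJ30* A5 the widest gap between genotypes at 16 °C, from 0.68 to 0.84.

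Retention of a *PRR7* intron was more frequent in the warm. PSI of the IR event at 16 °C was 0.28 for WT, 0.26 for *sdg8-2* and 0.27 for *sdg26-1*, and at 25 °C it was 0.39, 0.34 and 0.35 in the same order. The 3 values at 16 °C lay within 0.02 of each other and all lay below the 3 values at 25 °C. The change was 0.11 in WT and 0.08 in each mutant, a difference of −0.03 that is only just beyond rounding. At 25 °C the mutants were 0.05 and 0.04 below WT.

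Both ES events of *PRR7* belonged to exons that were nearly always included at 16 °C and somewhat less often at 25 °C. For the first, named ES 1 here for its lower inclusion, PSI was 0.96 and 0.88 in WT, against 0.93 and 0.85 for *sdg8-2* and 0.96 and 0.89 for *sdg26-1*. For ES 2 it was 0.98 and 0.93 for WT, 0.96 and 0.92 for *sdg8-2* and 0.98 and 0.94 for *sdg26-1*. As differences of PSI the changes were nearly the same in the 3 genotypes, from −0.08 to −0.07 for ES 1 and from −0.05 to −0.04 for ES 2. Relative to the rare form they were larger, and the genotypes differed more. In WT the share that skipped the exon of ES 1 was 4% at 16 °C and 12% at 25 °C, 3 times as much (2.56 to 3.57 by rounding). It was 7% and 15% with *sdg8-2*, 2.14 times as much (1.93 to 2.38), and 4% and 11% with *sdg26-1*, 2.75 times (2.33 to 3.29). For ES 2 the skipped share was 2% at 16 °C and 7% at 25 °C in WT, 4% and 8% with *sdg8-2* and 2% and 6% with *sdg26-1*. These are ratios of 3.5 (2.6 to 5), 2 (1.67 to 2.43) and 3 (2.2 to 4.33). The ranges by rounding of WT and *sdg8-2* did not overlap in either event. They hold rounding alone, without replicate or counting error, so whether the genotypes differ was not tested. In *sdg8-2* the skipped form of both was already more frequent at 16 °C, by 0.03 and 0.02 of PSI. The events come from 1 assembled locus and may share an exon. Both enter the counts of 8 events, which are therefore not counts of independent events.

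The exon of *LNK1* was included in about as many transcripts as it was skipped, and less often in the warm. PSI was 0.56 and 0.49 in WT, against 0.6 and 0.48 for *sdg8-2* and 0.54 and 0.44 for *sdg26-1*. The lowest value at 16 °C was above the highest at 25 °C. The changes were −0.07, −0.12 and −0.1, so the mutants had the larger ones. In *sdg8-2* the difference from WT stood at 16 °C (0.04 higher, and 0.01 lower at 25 °C), and in *sdg26-1* mainly at 25 °C (0.02 lower at 16 °C, 0.05 lower at 25 °C).

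The IR event of *LNK2* had the largest difference of PSI between the temperatures among the 8 events in each genotype. On the logit scale it was the largest in WT and *sdg8-2* but not in *sdg26-1*, where *JMJ30* A5 (1.56) and others were above it (1.13). The value was 0.18 at 16 °C and 0.53 at 25 °C in WT, against 0.24 and 0.46 for *sdg8-2* and 0.26 and 0.52 for *sdg26-1*. The retained form was thus the minor one at 16 °C and about as frequent as the spliced form at 25 °C. In order of level, WT was lowest at 16 °C and highest at 25 °C. The neighbours *sdg8-2* and *sdg26-1* at 16 °C, and *sdg26-1* and WT at 25 °C, were only 0.02 and 0.01 apart. WT had a change of 0.35, *sdg8-2* one of 0.22 and *sdg26-1* one of 0.26, which ranked 9, 61 and 33 by size among the 399 events and 4, 25 and 14 among the 155 IR events. Relative to 16 °C, the retained share was 2.94 times as large in WT, 1.92 times in *sdg8-2* and 2 times in *sdg26-1*. By the ratio of the rarer form, *PRR7* ES 1 (3) and ES 2 (3.5) were higher in WT. In both mutants *PRR7* ES 1, *PRR7* ES 2 and *LNK2* A3 were higher, at 2.14, 2 and 2.33 in *sdg8-2* and 2.75, 3 and 3 in *sdg26-1*. In WT and *sdg8-2* their ranges by rounding overlap with that of *LNK2* IR. The smaller change in *sdg8-2*, by 0.13, was made of a higher value at 16 °C (0.06) and a lower one at 25 °C (0.07). In *sdg26-1*, where it was smaller by 0.09, nearly all of the difference stood at 16 °C (0.08, against 0.01 at 25 °C).

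The A3 event of *LNK2* was a minor form in every condition. PSI was 0.04 and 0.09 for WT, 0.03 and 0.07 for *sdg8-2* and 0.04 and 0.12 for *sdg26-1*. The spliced-in form was 2.25, 2.33 and 3 times as frequent at 25 °C, with ranges by rounding of 1.89 to 2.71, 1.86 to 3 and 2.56 to 3.57 that overlap.

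The A3 event of *COR27* had its largest change in WT. PSI was 0.15 and 0.33 in WT, against 0.18 and 0.25 for *sdg8-2* and 0.17 and 0.27 for *sdg26-1*. The genotypes lay within 0.03 at 16 °C and within 0.08 at 25 °C, where WT was highest. The change of 0.18 in WT ranked 25 among the 130 A3 events, and the changes of 0.07 and 0.1 in *sdg8-2* and *sdg26-1* ranked 92 and 68. The differences of the mutants from WT in this change were −0.11 and −0.08, and most of them stood at 25 °C, where PSI was lower by 0.08 and 0.06. The spliced-in form was 2.2 times as frequent at 25 °C in WT, 1.39 times in *sdg8-2* and 1.59 times in *sdg26-1*. The ranges by rounding did not overlap (2.1 to 2.31, 1.32 to 1.46 and 1.51 to 1.67), but they hold no replicate or counting error.

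The A5 event of *JMJ30* had the opposite pattern, with PSI values of the genotypes that differed more in the cold than in the warm. PSI at 16 °C was 0.84 for WT, 0.78 for *sdg8-2* and 0.68 for *sdg26-1*, and at 25 °C it was 0.92, 0.9 and 0.91. The spread over the genotypes was 0.16 at 16 °C and 0.02 at 25 °C, while over all listed events the median spread was 0.05 at both temperatures. The values at 25 °C are near the upper limit of PSI. On the logit scale *sdg26-1* differed from WT by −0.9 at 16 °C and −0.13 at 25 °C. For *sdg8-2* the difference was −0.39 and −0.25, so it narrowed less. WT had a change of 0.08, *sdg8-2* one of 0.12 and *sdg26-1* one of 0.23, the last of which ranked 11 among the 73 A5 events. The rarer form made up 16% of transcripts in WT, 22% in *sdg8-2* and 32% in *sdg26-1* at 16 °C, against 8%, 10% and 9% at 25 °C. The difference of *sdg26-1* from WT at 16 °C, −0.16, ranked 21 by size among the 399 events.

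Set beside all listed events, the clock events had changes of ordinary size. An absolute change of at least 0.1 was counted in 3 of 8 events in WT (*PRR7* IR, *LNK2* IR and *COR27* A3), against 51.1% of all listed events. In *sdg8-2* it was 3 of 8 (*LNK1* ES, *LNK2* IR and *JMJ30* A5), against 56.1%. In *sdg26-1* it was 4 of 8, the same events with *COR27* A3, against 59.6%. For WT, *sdg8-2* and *sdg26-1* in this order, the 8 events had median absolute changes of 0.08, 0.08 and 0.09 and all listed events 0.1, 0.11 and 0.11. Of the 8, only *LNK2* IR passed 0.1 in all genotypes, 1 of 8 against 31.6% of all listed events. Both A3 events of *LNK4*, a clock gene outside the 5 that is described below, also passed 0.1 in all genotypes and are not in these counts. At a smallest change of 0.05 the counts were 8, 6 and 7 of 8, against 80.5%, 79.9% and 87.7%. At 0.15 they were 2, 1 and 2 of 8, against 30.3%, 32.1% and 32.8%.

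**Figure D3:**
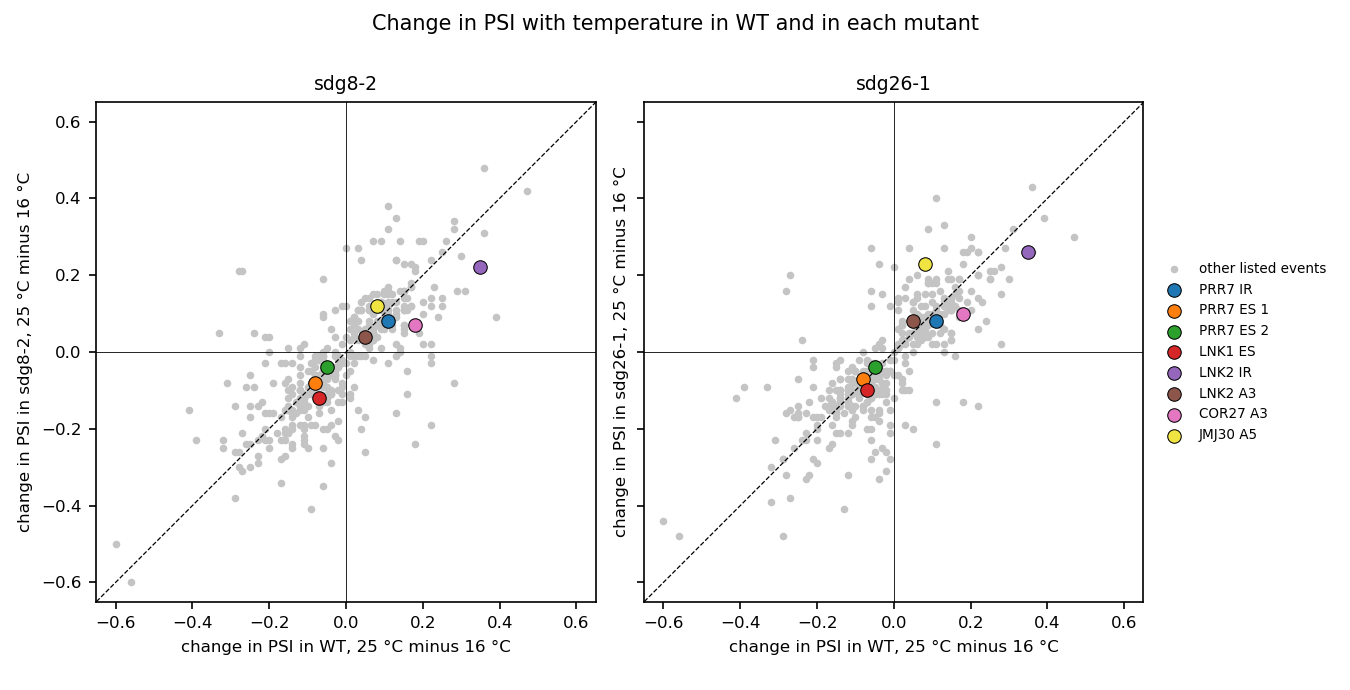
Change in PSI, 25 °C minus 16 °C, in WT (horizontal axis) and in *sdg8-2* or *sdg26-1* (vertical axis), with 1 point per event, the 8 clock events in colour and the 391 events of other genes in grey. The dashed line marks equal changes. All 8 clock events lie in the quadrants of equal sign, *LNK2* IR and *COR27* A3 nearer to 0 in both mutants than in WT, and *JMJ30* A5 above the line in both.

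The mutants, both set against the same WT values, differed from WT by at least 0.1 in few of the clock events. At 16 °C the *JMJ30* event was past this size in *sdg26-1*, 1 of 8 against 14.3% of all listed events, and none was in *sdg8-2*, against 18.3%. At 25 °C none of the 8 was past it, against 15% of listed events in *sdg8-2* and 9.52% in *sdg26-1*. The change with temperature differed from that in WT by at least 0.1 in *LNK2* IR and *COR27* A3 for *sdg8-2*, 2 of 8 against 26.1%. For *sdg26-1* it did so in *JMJ30* A5 alone, 1 of 8 against 22.6%. In both mutants the change was smaller than in WT for *PRR7* IR, *LNK2* IR and *COR27* A3 and larger for *LNK1* ES and *JMJ30* A5. For *PRR7* IR in both mutants and *LNK1* ES in *sdg26-1* this difference was −0.03, only just beyond rounding. The events with a smaller change were those with the largest changes in WT (0.11, 0.35 and 0.18). How many of all listed events had a smaller or a larger change in both mutants was not counted. The split is therefore not shown to be particular to the clock genes. At 25 °C PSI was lower in *sdg8-2* than in WT in 8 of 8 events, by 0.01 to 0.08, against 47.4% of all listed events. Of these, the differences of *PRR7* ES 2 and *LNK1* ES were no larger than rounding allows. Lower PSI means less retention for IR and more skipping for ES, and its meaning is not known for A3 and A5. The count is thus not of 1 direction of splicing, nor of independent events. In *sdg26-1* PSI was lower in 5 of 8, against 46.6%. Of these, *LNK2* IR and *JMJ30* A5 were lower by only 0.01, and the *PRR7* ES events were higher by only 0.01, all no larger than rounding allows.

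**Figure D4:**
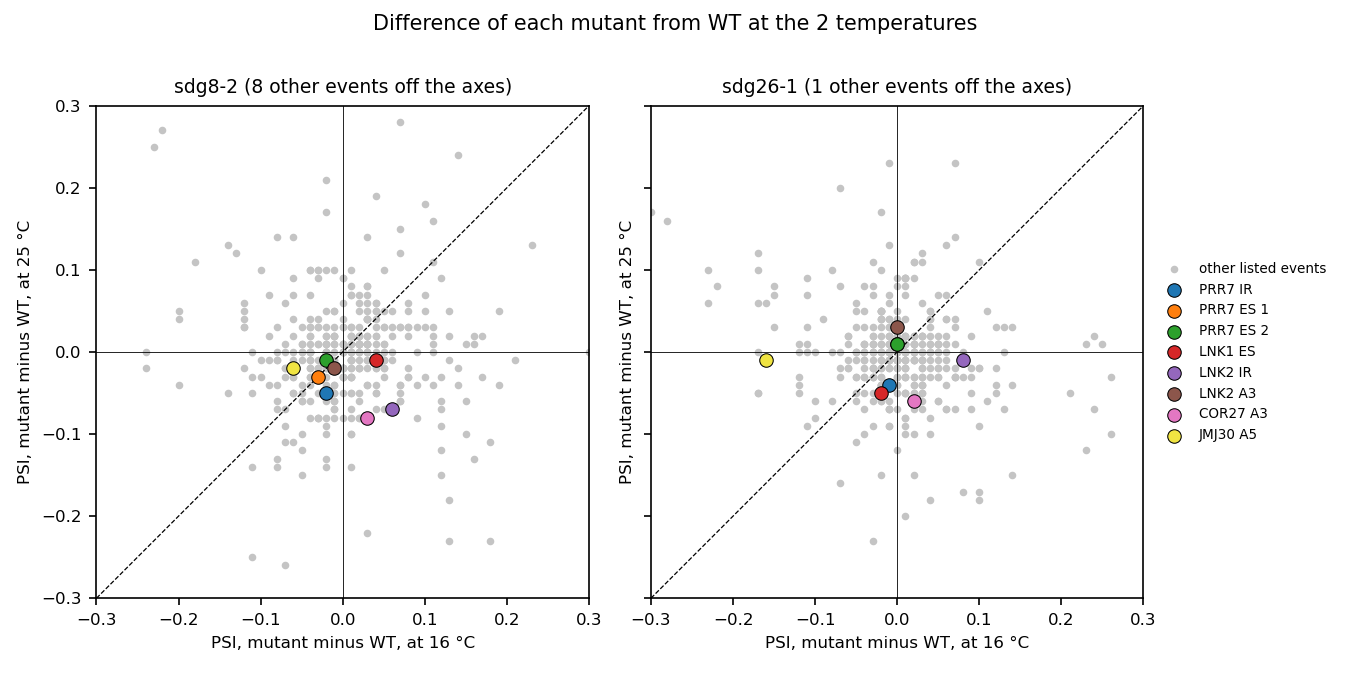
PSI of the mutant minus PSI of WT at 16 °C (horizontal axis) and at 25 °C (vertical axis), with the 8 clock events in colour and other listed events in grey. The dashed line marks equal differences at both temperatures, 8 and 1 other events fall outside the axes, and in *sdg26-1* the point of *PRR7* ES 2 covers that of ES 1. *JMJ30* A5 lies far left in *sdg26-1* at −0.16 and near 0 on the vertical axis, while *COR27* A3 and *LNK2* IR lie low and right of 0 in *sdg8-2*.

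Of a wider list of 29 further clock genes, which included *CCA1*, *LHY*, *TOC1*, *GI*, *ELF3* and the other *PRR* genes, only *LNK4* (AT5G06980), a relative of *LNK1* and *LNK2*, was listed in the table. Its first A3 event had a PSI of 0.79 and 0.58 for WT, 0.73 and 0.53 for *sdg8-2* and 0.81 and 0.53 for *sdg26-1*. Its second had 0.96 and 0.85, 0.92 and 0.77, and 0.96 and 0.85. Both were lower at 25 °C in every genotype, with changes of −0.21, −0.2 and −0.28 in the first event and of −0.11, −0.15 and −0.11 in the other. The A3 events of *LNK2* and *COR27* were higher, but the sites that count as spliced in are not known for any of them. With *LNK4*, events of 3 *LNK* genes were listed, while *LNK3*, also in the wider list, was not. *LNK1* and *LNK2* were taken from among the listed genes, so this count says nothing of the family. The authors listed events by the strength of the call, reads and spread between replicates, so the table says nothing of splicing in genes that are not listed.

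For each clock event the events of other genes with the most similar pattern over the 6 conditions were listed. Likeness was measured as the mean absolute difference in PSI after the mean of each event had been taken off, with smaller values more alike. It is not scaled by the size of the change, so events with small changes have nearer neighbours, and with the PSI values themselves only 2 of the 24 events listed were still among the nearest. For *PRR7* IR the nearest was an ES event of *BGLU6* (AT1G60270), which encodes a beta glucosidase, at 0.00833. For *LNK1* ES it was an A3 event of AT2G04540, a beta-ketoacyl synthase gene, at 0.01, and for *LNK2* A3 an A5 event of AT1G26850, at 0.00778. For *PRR7* ES 1 and ES 2 they were an A3 event of AT1G53400, the first of 3 events at 0.01, and an IR event of *DYL1* (AT1G28330) at 0.00667. For *LNK2* IR it was an A5 event of *OTP86* (AT3G63370) at 0.0289, which had 0.21 and 0.5 in WT, against 0.3 and 0.46 for *sdg8-2* and 0.23 and 0.5 for *sdg26-1*. For *COR27* A3 the nearest were an A3 event of AT5G03500, a Mediator subunit gene, at 0.0133 and an IR event of AT5G08430 at 0.0167. The first had changes of 0.15 in WT and 0.11 in each mutant and the other 0.15 and 0.05, while the third, an A3 event of *RS2Z33* (AT2G37340), at 0.0183, had 0.13, 0.11 and 0.12. For *JMJ30* A5 it was an A5 event of *SUVR2* (AT5G43990), which encodes a SET-domain protein, at 0.0217. Its PSI was also lowest in *sdg26-1* at 16 °C, with 0.26 in WT, 0.16 in *sdg8-2* and 0.09, beside 0.3, 0.29 and 0.36 at 25 °C.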

How the data were processed

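RNA was extracted from the 18 samples and sequenced as stranded poly(A) libraries. Per the submitters' processing notes and the methods, TopHat2 aligned the reads to TAIR10, Cufflinks added transcripts to the annotation, and MISO estimated PSI on the merged replicates, with versions not given in the sources used here. Deposited values are PSI as a fraction with at most 2 decimals, in 6 columns of 399 events, each event with the authors' call in at least 1 genotype. The columns with the authors' differences and calls were not used otherwise.

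Changes were computed as 25 °C minus 16 °C, and mutant differences as mutant minus WT, for all 399 events. Counts used an absolute difference of at least 0.1. Python 3.11.15, numpy 2.4.6, pandas 2.3.3 and matplotlib 3.10.9 were used, and the counting was tested on simulated data. Annotated differences were listed from RefSeq (TAIR10.1), and all sequences are from its genome. A planned comparison of the LNK1 and LNK2 proteins was not run. Alternatives changed the smallest change counted, the scale (logit of PSI held within 0.005 and 0.995), rounding, the weight of each gene and the measure of likeness.

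The members and the clock list were chosen with earlier results of these data known. Named genes were every event of the 5 genes, every listed gene of the clock list, and the 3 events most like each event of the 5 genes, of which the text gives the nearest, and for *COR27* all 3.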

Additional observations from a re-analysis of the deposited data

How the results depend on the processing

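The logit keeps the order of 2 values, so it could not change the sign of the 24 changes with temperature of the 8 events. The same holds for the 32 differences of a mutant from WT at 1 temperature, so the scale was not tested by them. All 24 changes were larger than the rounding limit of 0.01. Of the 16 differences between a mutant's change and that of WT, 14 had the same sign on the logit scale and 5 were within the rounding limit of 0.02. The counts of events depended on the smallest change. At 0.05 they were 8 in WT, 6 in *sdg8-2* and 7 in *sdg26-1*, and at 0.15 they were 2 in WT, 1 in *sdg8-2* and 2 in *sdg26-1*. After shrinking by rounding, 2 were left in *sdg26-1*, where *LNK1* ES and *COR27* A3 stood at the limit. With 1 event per gene, the one with the largest mean absolute change, the median absolute change was 0.11 in WT and 0.12 in *sdg8-2*. Without *PRR7* it was 0.12 in *sdg8-2* and 0.08 in WT, as with all 8 events. With the distance of the PSI values themselves, 2 of the 24 events named as most alike were still among the nearest. No paired analysis was possible because the authors merged the replicates, so leaving out a replicate could not be tried either. Depth per event is unknown, and differences of 0.02 or less are near the resolution of the table.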
